A study of Mus musculus with 16 samples.

Results

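The palmitate response of mouse hepatic progenitor cells that lack Ptpn1 was set against that of cells that carry it. All 16 libraries of the series entered, 4 in each of 4 groups. KOPALM is Ptpn1-/- cells given 400 µM palmitic acid for 8 h, KOCTRL is Ptpn1-/- cells labelled control, WTPALM is Ptpn1+/+ cells given the same palmitic acid for 8 h, and WTCTRL is Ptpn1+/+ cells labelled control. The quantity described is the KO response (KOPALM minus KOCTRL) minus the WT response (WTPALM minus WTCTRL), each on the log2(value + 1) scale, so that a positive difference is a response higher in KO. It was tested in 15239 of the 55421 genes in the table, those with at least 10 normalized counts in at least 4 libraries. A response or a difference was called at an adjusted p under 0.05 (limma, two-sided, Benjamini-Hochberg over the genes tested). The log2(value + 1) scale understates changes of genes with few counts. Values are normalized counts per library, in replicate order 1 to 4, and changes are given as log2 ± SE from 4 libraries per group.

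Hepatic progenitor cells, also called oval cells, are epithelial cells of the injured liver that can give rise to hepatocytes and to bile duct cells. Palmitic acid is a saturated fatty acid. In liver cells an excess of it disturbs the membrane of the endoplasmic reticulum (ER), activates the ER stress sensors and the kinases that phosphorylate eIF2α, and is taken up as a fuel and as a ligand precursor for the PPAR receptors. Phosphorylated eIF2α favours translation of the transcription factor ATF4, which with CHOP (Ddit3) drives genes of amino acid supply, and this arm is called the integrated stress response. Ptpn1 encodes PTP1B, a tyrosine phosphatase anchored to the ER that removes phosphate from the insulin receptor and from JAK kinases.

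Libraries held 21553952 to 35693442 gene reads. Ptpn1 itself (chromosome 2, 167932057 to 167979385, GENCODE vM21 on GRCm38) had 287, 298, 281 and 307 normalized counts in KOPALM, 327, 351, 328 and 312 in KOCTRL, 1852, 1828, 1861 and 1866 in WTPALM and 1928, 1972, 1960.3 and 1885 in WTCTRL. The KO mean lay at 15.8% of the WT mean after palmitate and at 17.0% in control, without overlap between libraries (exact permutation test, two-sided p = 0.0286 in each, the smallest that 4 against 4 allows). Its difference of responses was -0.10 ± 0.059, which did not pass (adjusted p = 0.307). The progenitor markers Krt19, Krt7, Spp1 and Sox9 were expressed in every group, whereas Epcam, Kit, Thy1 and Dlk1 averaged at most 2.6 normalized counts in any group. The genotypes were far apart before palmitate, with 77.1% of genes called between KOCTRL and WTCTRL. Summed hepatocyte markers ran from 105703 to 108351 in KOPALM, 95987 to 98922 in KOCTRL, 5910 to 6126 in WTPALM and 5653 to 5690 in WTCTRL, and summed stellate and fibroblast markers from 828 to 915 in KOPALM, 751 to 995 in KOCTRL, 20090 to 20903 in WTPALM and 21407 to 22426 in WTCTRL. No label says how many cell lines or cultures stand behind a genotype. An effect of the deletion and one of the particular line cannot be told apart, and p-values measure the spread between libraries, which may be technical. The labels also do not say which medium the control cells had. In bulk RNA, fewer cells of a type and less RNA per cell cannot be told apart.

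Palmitate changed 5960 genes in KO (39.1% of those tested) and 5734 in WT (37.6%), of which 2845 rose (18.7%) and 3115 fell (20.4%) in KO, and 2702 rose (17.7%) and 3032 fell (19.9%) in WT. The difference of responses was called for 1508 genes, 9.9% of those tested, 638 with a higher (4.19%) and 870 with a lower response in KO (5.71%). Most of these differences were small, with a median absolute value of 0.24 on the log2 scale. At least a 1.5-fold difference was found for 130 genes (0.853% of those tested), 59 higher and 71 lower, and at least a 2-fold one for 56, 23 higher and 33 lower. The median difference over all genes tested was 0.00041. Across the 15239 genes the KO and WT responses had a Pearson correlation of 0.46 and a Spearman correlation of 0.52. This is a description across genes, which are not independent replicates. The responses share no library, but they share the name of hepatic progenitor cells, a protocol and the gene set.

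The genes were sorted into exclusive classes. Shared responses, called in both genotypes with the same sign and without a called difference, made up 3202 genes, 1401 that rose and 1801 that fell. Among the 1508 called differences, 513 genes had a response called in KO only (KO-specific) and 433 in WT only (WT-specific). The other response did not pass, which does not show that it was absent. Of the 513, 114 had a positive and 114 a negative log2 change in both genotypes, and of the 433, 77 and 78. Below, a change in KO only or WT only likewise refers to calls. Another 208 of the 1508 were called in both genotypes with the same sign but moved more in KO on the log2 scale, and 109 more in WT. In normalized counts the order was the other one for 22 of the 208 and 3 of the 109. Opposite responses, called in both genotypes with different signs, were found for 154 genes, 48 that rose in KO and fell in WT and 106 that fell in KO and rose in WT. The baseline-dependent class held 69 genes defined by unequal starting levels or by a level near 0 in 1 genotype. Of these, 53 changed sign between the log2 scale and normalized counts, and 16 had a mean under 10 normalized counts in both groups of 1 genotype. In 22 genes the difference was called although neither response was. A further 3288 genes had a response called in 1 genotype without a called difference, so they are not shown to respond differently. Single libraries moved some classes by more than 1.5 times. The class larger in KO held 321 genes without replicate 1 of KOPALM, and the class larger in WT held 174 without replicate 4 of WTCTRL. Genes present in 1 genotype numbered 8 to 10 without replicate 3 of KOPALM, replicate 3 of KOCTRL or replicate 2, 3 or 4 of WTPALM. Those with neither response called numbered 8 to 14 without replicate 4 of KOPALM, replicate 2, 3 or 4 of KOCTRL, WTPALM or WTCTRL.

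**Figure D1:**
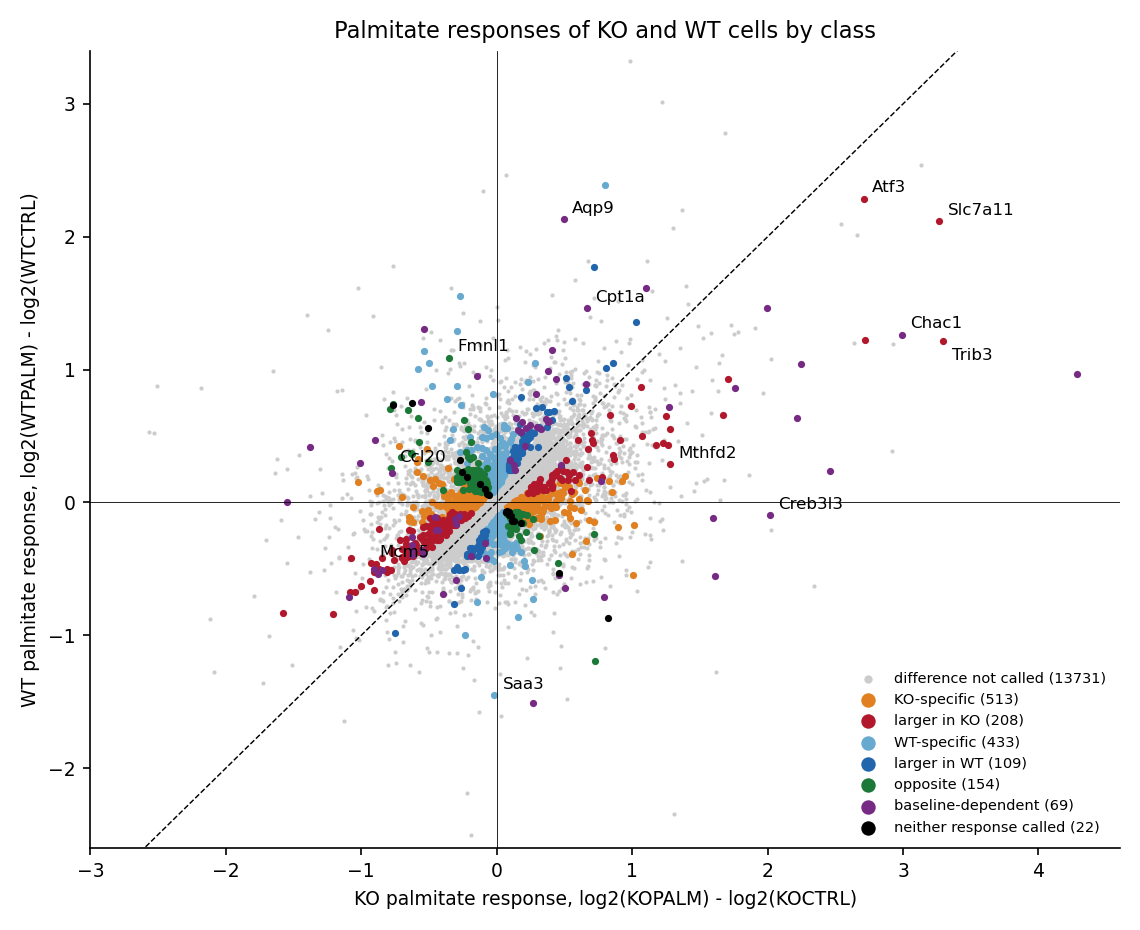
Palmitate response of each of 15239 genes in KO (x axis) and WT (y axis), both as log2 change on the log2(value + 1) scale; colour gives the class and the dashed line marks equal responses. 3 genes lie outside the plotted range. Trib3, Chac1 and Slc7a11 have the larger KO response (3.30, 2.99 and 3.27, against 1.22, 1.26 and 2.12 in WT), and Cpt1a and Aqp9 the larger WT response.

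Genes of the integrated stress response rose in both genotypes, and many of them rose further in KO on the log2 scale. Palmitate raised 26 of its 33 measured genes in KO and 28 in WT, and lowered 1 in each. The response was higher in KO for 15 (45.5%) and lower for 3 (9.09%), with a median difference of 0.097 against 0.00041 over all genes tested. Of all genes tested, 4.19% were higher and 5.71% lower, and palmitate raised 18.7% in KO and 17.7% in WT. Of the 33 genes 13 moved the same way in both genotypes but more in KO, and 10 were shared. In normalized counts 3 of the 18 called differences, those of Atf3, Atf4 and Chac1, had the other direction.

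Trib3, a pseudokinase induced by ATF4 and CHOP that feeds back on both, had 783, 882, 994 and 1124 normalized counts in KOPALM, 94.4, 91.1, 92.1 and 101 in KOCTRL, 1389.7, 1422, 1446 and 1545 in WTPALM and 656, 585, 601 and 654 in WTCTRL. The 4 groups did not overlap, and KO lay below WT in both treatments. It rose by 3.30 ± 0.077 in KO and 1.22 ± 0.077 in WT, a difference of 2.08 ± 0.11 (adjusted p = 3.97e-11). Chac1, a glutathione-degrading enzyme under ATF4, had 307, 367, 428 and 435 normalized counts in KOPALM, 42, 40.1, 52.6 and 55.1 in KOCTRL, 746, 724, 732 and 784 in WTPALM and 304, 323, 305 and 309 in WTCTRL. KOPALM overlapped WTCTRL, and KO lay below WT in both treatments. The log2 rise was 2.99 ± 0.10 in KO and 1.26 ± 0.10 in WT. The difference was 1.73 ± 0.14 (adjusted p = 1.19e-08), and in normalized counts the gain was smaller in KO than in WT, which placed Chac1 among the baseline-dependent genes. Slc7a11, the cystine importer subunit xCT, had 869, 879, 995 and 910.4 normalized counts in KOPALM, 94.4, 85.1, 92.1 and 104 in KOCTRL, 984, 1034, 1041 and 1083 in WTPALM and 236, 213, 242 and 262 in WTCTRL. KOPALM and WTPALM overlapped, whereas every KOCTRL library lay below every WTCTRL library. The rise was 3.27 ± 0.067 in KO and 2.12 ± 0.067 in WT (difference 1.15 ± 0.10, adjusted p = 5.29e-09).

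The one-carbon enzyme gene Mthfd2, which supplies mitochondrial folate units, had 1153, 1252, 1430.1 and 1436 normalized counts in KOPALM, 515, 560.2, 520.4 and 567 in KOCTRL, 2688, 2586, 2641 and 2565 in WTPALM and 2242, 2156, 2147 and 2044 in WTCTRL. KO stayed below WT in both treatments without overlap, and the rise was 1.28 ± 0.055 in KO against 0.29 ± 0.055 in WT (difference 0.99 ± 0.077, adjusted p = 3.76e-08). The neutral amino acid transporter gene Slc1a4, which is not in the list, showed a difference of 1.01 ± 0.14 (adjusted p = 0.000335) after rises of 1.67 in KO and 0.66 in WT. Among genes of amino acid synthesis, the differences were 0.74 for Aldh18a1 and 0.50 for Pycr1, both of the proline pathway, 0.53 for Psph, the last enzyme of serine synthesis, and 0.44 for Asns, asparagine synthetase. The transcription factor genes Atf4, Atf3 and Ddit3 had differences of 0.26, 0.42 and 0.19. Atf4 had 6344, 6295, 6622 and 7024 normalized counts in KOPALM, 4057, 4109.7, 3888 and 3980.5 in KOCTRL, 11194, 10506, 10747 and 10980.0 in WTPALM and 8214, 7990.1, 8029 and 7548 in WTCTRL. It rose in both genotypes, by 0.71 ± 0.033 in KO and 0.45 ± 0.033 in WT (difference 0.26 ± 0.046, adjusted p = 0.000409), and KO libraries were the lower ones in both treatments. Its mean gained 2562 normalized counts in KO and 2911 in WT. Atf3 rose by 2.71 in KO and 2.29 in WT (difference 0.42 ± 0.087, adjusted p = 0.00203), with gains of 1229 normalized counts in KO and 1266 in WT. For Ddit3, which encodes CHOP, the rises of 1.06 in KO and 0.87 in WT differed by 0.19 ± 0.060 (adjusted p = 0.036), a call lost under 14 of 26 alternative settings. The 3 genes with a lower response in KO were Gdf15, a secreted stress cytokine (-0.014 in KO, 0.30 in WT), Slc3a2, the heavy chain partner of amino acid transporters (0.41 in KO, 0.62 in WT), and Ppp1r15a, the phosphatase subunit that reverses eIF2α phosphorylation (0.86 in KO, 1.05 in WT).

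**Figure D2:**
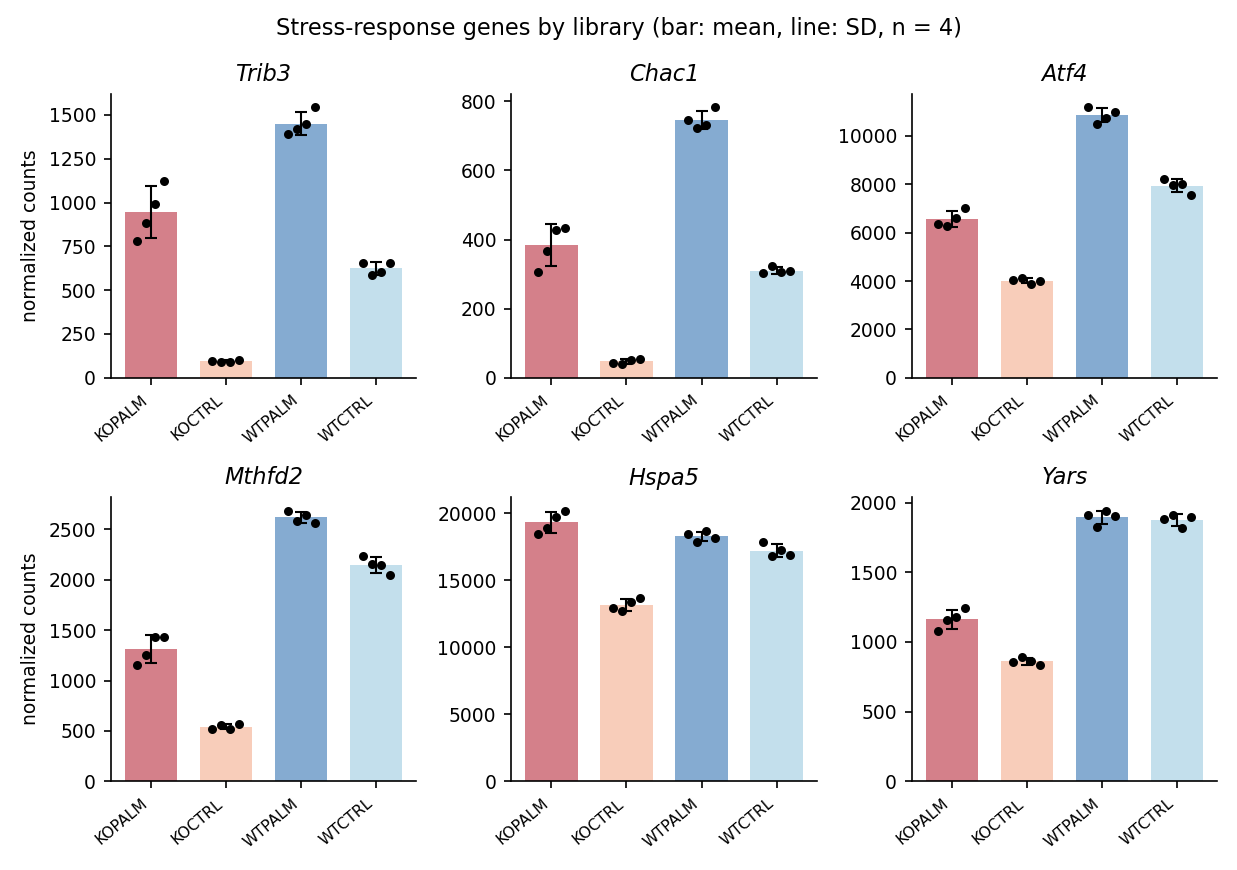
Normalized counts (y axis, linear) of 6 stress-response genes in each library, with the 4 groups on the x axis; bars are group means, lines are SD (n = 4) and points are libraries. KOCTRL is the lowest group in all 6 panels, and the ratio of the KOPALM to the KOCTRL mean exceeds that of the WTPALM to the WTCTRL mean in each.

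Cytosolic aminoacyl-tRNA synthetases, which charge tRNAs with amino acids and include known ATF4 targets, rose in larger number in KO. Palmitate raised 14 of 20 in KO and 7 in WT, and lowered 4 in KO and 6 in WT. The response was higher in KO for 11 of 20 (55%) and lower for none, against 4.19% and 5.71% of all genes tested. The median difference was 0.16. Yars, the tyrosine enzyme, had 1077, 1159, 1175 and 1241 normalized counts in KOPALM, 853, 891, 863 and 834 in KOCTRL, 1911, 1825, 1938 and 1902 in WTPALM and 1883, 1913, 1815 and 1894 in WTCTRL. The KOPALM libraries lay above KOCTRL without overlap, the WTPALM and WTCTRL libraries overlapped, and KO lay below WT throughout. Its response was 0.43 ± 0.038 in KO and 0.014 ± 0.038 in WT (difference 0.42 ± 0.053, adjusted p = 6.37e-06). Aars, the alanine enzyme, rose in both, by 0.47 ± 0.025 in KO and 0.19 ± 0.025 in WT (difference 0.28 ± 0.035, adjusted p = 5.35e-06). The remaining 9 called members were Iars, Lars, Tars, Farsb, Eprs, Mars, Gars, Nars and Sars, with differences of 0.14 to 0.28. Cars rose by 0.43 in KO and 0.29 in WT, and its difference of 0.14 ± 0.049 did not pass (adjusted p = 0.0603). Kars, Vars, Hars and Farsa fell in both genotypes, with no called difference.

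ER chaperones and quality-control genes rose in larger number in KO. Palmitate raised 23 of 26 in KO and 12 in WT, and lowered 1 in KO and 2 in WT. The response was higher in KO for 13 (50%) and lower for 2 (7.69%), against 4.19% and 5.71% of all genes tested. The median difference was 0.14, the median KO response 0.27 and the median WT response 0.056. Hspa5, the ER chaperone BiP, had 18423, 18903, 19705 and 20196 normalized counts in KOPALM, 12932, 12689, 13383 and 13668 in KOCTRL, 18461, 17872, 18645 and 18174 in WTPALM and 17851, 16836, 17219 and 16909 in WTCTRL. KOCTRL lay below all other groups, and KOPALM overlapped WTPALM and lay above WTCTRL. It rose by 0.55 ± 0.030 in KO and 0.088 ± 0.030 in WT (difference 0.46 ± 0.042, adjusted p = 2.75e-08). Sdf2l1, a chaperone partner, was KO-specific at 0.40 ± 0.074 in KO and -0.016 ± 0.074 in WT (difference 0.41 ± 0.10, adjusted p = 0.01). So was Hyou1, an exchange factor for BiP, at 0.39 ± 0.032 in KO and 0.064 ± 0.032 in WT (difference 0.33 ± 0.045, adjusted p = 1.83e-05). Every WTPALM library of Hyou1 lay above every WTCTRL library, although its WT response did not pass (limma adjusted p = 0.117). Calr, a calcium-binding lectin chaperone, had a difference of 0.23 ± 0.036 (adjusted p = 9.15e-05). Xbp1, the target of the IRE1 splicing arm, rose by 0.51 in KO and 0.32 in WT (difference 0.19 ± 0.057, adjusted p = 0.027, lost under 9 of 26 alternatives). Gene totals do not show its splicing. The 2 members with a lower response in KO were Eif2ak3, which encodes the sensor PERK (-0.044 in KO, 0.10 in WT), and Crebrf, a regulator that limits this response (-0.12 in KO, 0.17 in WT). The 2 were 1 without replicate 3 of KOPALM, replicate 1 or 3 of KOCTRL, replicate 2 or 4 of WTPALM or replicate 3 or 4 of WTCTRL. Sensor and degradation genes such as Ern1, Atf6, Syvn1 and Sel1l rose in both genotypes and had no called difference.

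Without each library in turn, 14 to 16 integrated stress response genes, 11 to 12 synthetases and 11 to 15 ER genes were called higher, against 15, 11 and 13 in all libraries. In the integrated stress response list 6 genes were higher by at least 1.5-fold, and no synthetase and no ER gene was.

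**Figure D3:**
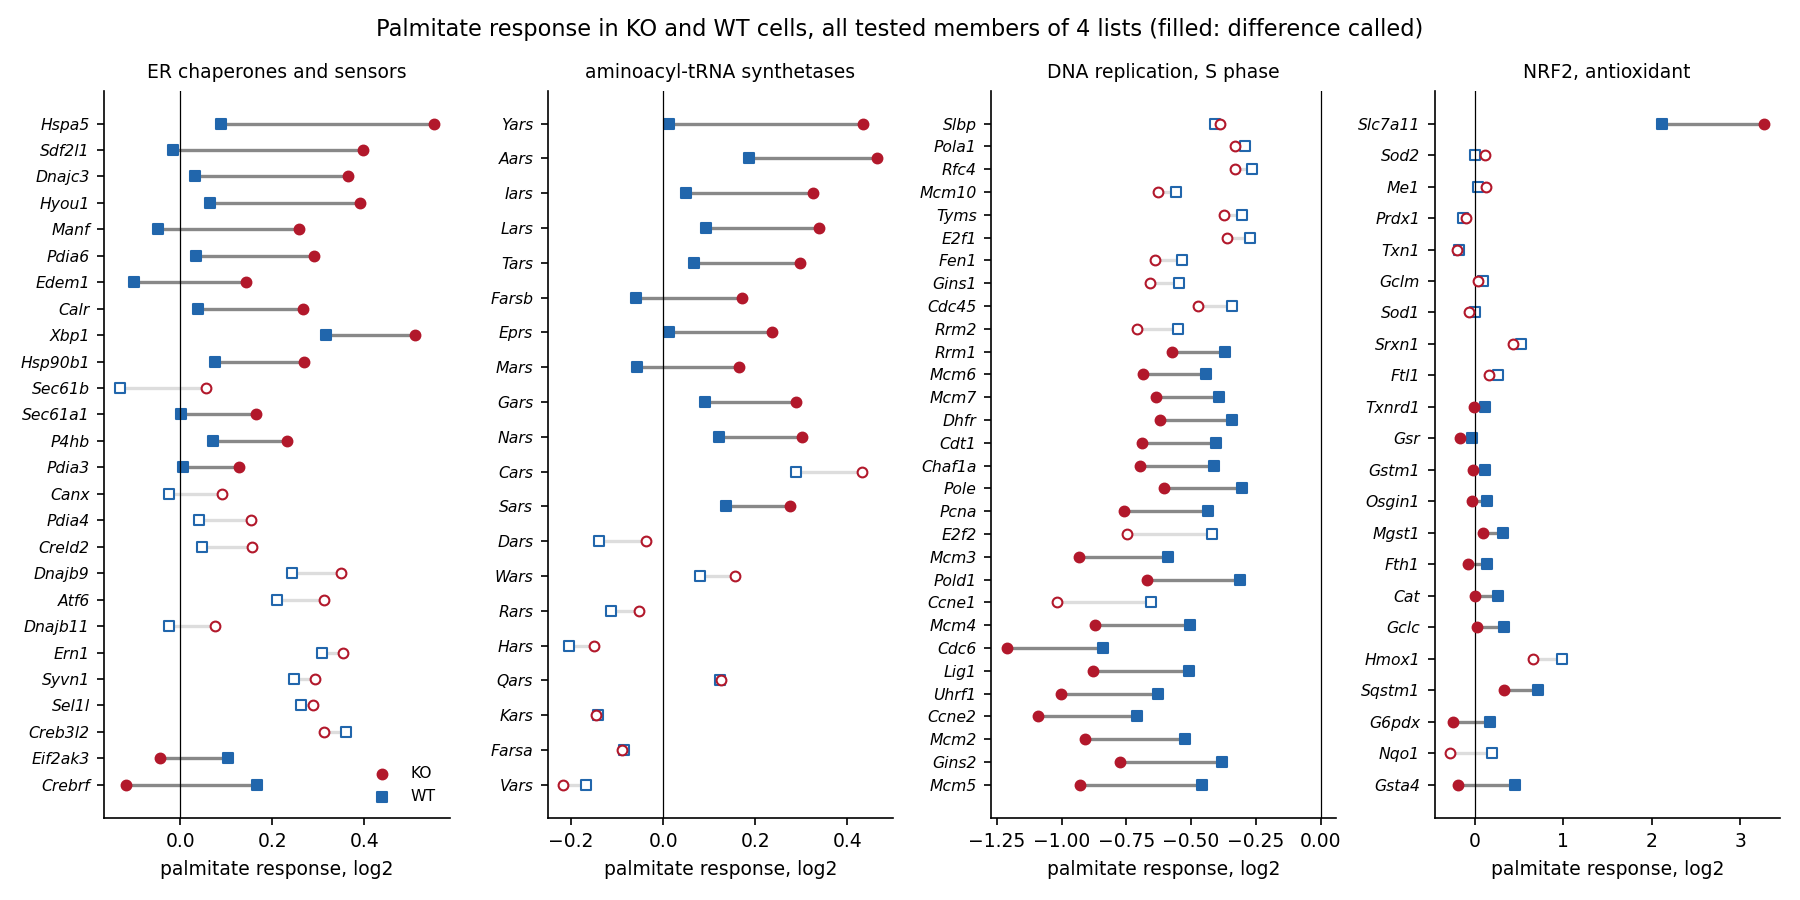
Palmitate response (x axis, log2) in KO (circles) and WT (squares) for every measured member of 4 lists, ordered by the difference; filled symbols mark a called difference and the vertical line is 0. KO lies right of WT for most ER and synthetase genes, and left of WT for most replication and antioxidant genes.

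Promoter windows of the stress and replication genes were searched for short motifs, since members of these lists moved together. RefSeq windows of 250 bases before to 50 after the gene start (GRCm38.p6) were matched by symbol. TGATGNAA, the core of the composite C/EBP-ATF element through which ATF4 and CHOP act, was in the windows of 6 of the 17 matched integrated stress response genes with a called difference (Asns, Atf3, Chac1, Pycr1, Slc7a11 and Trib3), in 4 of 12 without one, and in 3.97% of all 32851 windows. TGACGTCA, the cyclic AMP response element, was in 1 of 17 (Ppp1r15a), in 0 of 12 and in 1.79% of all, and the AP-1 motif TGACTCA in 1 of 17 (Ddit3), in 0 of 12 and in 5.2%. The ER stress response element, CCAAT and CCACG with 9 bases between them, was in 5 of 12 matched ER genes with a called difference (Calr, Dnajc3, Hsp90b1, Hspa5 and Pdia6), in 3 of 10 without one and in 0.119% of all windows. TTTNNCGC, an E2F-type motif, was in 9 of 13 matched replication genes with a called difference (Cdc6, Cdt1, Lig1, Mcm3, Mcm5, Mcm6, Mcm7, Pold1 and Uhrf1), in 3 of 11 without one and in 5.17% of all. TGACNNNGC, the antioxidant response element core, was in 3 of 9 matched antioxidant genes with a called difference (G6pdx, Mgst1 and Txnrd1), in 5 of 9 without one and in 12.4% of all. Whether a motif went with the called difference was not tested. Both strands were searched, the last 3 motifs were chosen after the values were seen, and no match overlapped that of another motif in the 32 windows involved. A match is a description and no evidence of binding. The 250 bases before the RefSeq start of 6 of these genes are printed 5′ to 3′ on the gene's strand, with the motif in capitals. These 6 were taken since their values are given beside those of their list. Chac1, Asns and Slc7a11 carry the C/EBP-ATF core, Hspa5 the ER stress element, and Mcm5 and Cdc6 the E2F-type motif, which in Mcm5 is a pair of overlapping matches on opposite strands. The windows are chr2:119350992-119351241 (plus strand) for Chac1, chr6:7693210-7693459 (minus strand) for Asns, chr3:50443614-50443863 (minus strand) for Slc7a11, chr2:34771840-34772089 (plus strand) for Hspa5, chr8:75109259-75109508 (plus strand) for Mcm5, and chr11:98907901-98908150 (plus strand) for Cdc6. GENCODE vM21 places some starts further upstream, at 98907801 for Cdc6, 34771970 for Hspa5 and 7693254 for Asns. By those starts the marked motifs of Cdc6, Hspa5 and Asns lie inside the gene.
Chac1: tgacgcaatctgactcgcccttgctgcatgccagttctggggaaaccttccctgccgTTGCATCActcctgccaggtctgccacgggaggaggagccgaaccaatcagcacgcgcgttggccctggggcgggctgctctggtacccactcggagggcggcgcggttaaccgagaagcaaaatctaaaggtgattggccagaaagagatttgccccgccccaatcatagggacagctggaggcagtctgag
Asns: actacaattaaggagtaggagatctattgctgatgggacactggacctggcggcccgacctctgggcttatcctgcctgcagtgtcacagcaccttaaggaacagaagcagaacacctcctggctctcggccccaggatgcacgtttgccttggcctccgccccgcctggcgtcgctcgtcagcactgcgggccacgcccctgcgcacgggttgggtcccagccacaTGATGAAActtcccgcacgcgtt
Slc7a11: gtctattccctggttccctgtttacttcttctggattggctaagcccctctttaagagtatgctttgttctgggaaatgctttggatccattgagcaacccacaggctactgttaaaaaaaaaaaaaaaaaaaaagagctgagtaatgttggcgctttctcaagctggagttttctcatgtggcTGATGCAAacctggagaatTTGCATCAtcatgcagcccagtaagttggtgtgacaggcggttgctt
Hspa5: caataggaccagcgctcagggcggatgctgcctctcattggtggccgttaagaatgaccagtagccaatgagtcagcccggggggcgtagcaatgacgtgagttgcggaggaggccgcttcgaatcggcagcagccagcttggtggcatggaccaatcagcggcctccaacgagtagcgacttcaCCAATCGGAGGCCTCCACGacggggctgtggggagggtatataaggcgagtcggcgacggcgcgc
Mcm5: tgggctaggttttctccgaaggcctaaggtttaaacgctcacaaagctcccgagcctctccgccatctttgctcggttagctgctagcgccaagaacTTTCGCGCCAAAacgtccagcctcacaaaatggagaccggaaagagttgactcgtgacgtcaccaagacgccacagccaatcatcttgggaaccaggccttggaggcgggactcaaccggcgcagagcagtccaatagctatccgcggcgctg
Cdc6: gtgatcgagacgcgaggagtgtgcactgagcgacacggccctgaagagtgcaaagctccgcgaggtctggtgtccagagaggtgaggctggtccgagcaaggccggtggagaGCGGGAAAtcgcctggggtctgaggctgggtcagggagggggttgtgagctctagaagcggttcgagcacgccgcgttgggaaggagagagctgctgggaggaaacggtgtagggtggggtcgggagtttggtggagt

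Genes of DNA replication fell in both genotypes, and further in KO on the log2 scale. Palmitate lowered all 30 measured members in KO and in WT, with a median of -0.69 in KO and -0.43 in WT. The response was lower in KO for 18 (60%) and higher for none, against 5.71% and 4.19% of all genes tested. The median difference was -0.29. Of the 30, 17 were called with a larger fall in KO, 12 were shared and 1 (Ccne2) was baseline-dependent. In normalized counts the fall was smaller in KO for 9 of the 18 called members (Uhrf1, Chaf1a, Mcm2, Mcm3, Mcm4, Mcm7, Cdc6, Ccne2 and Lig1), of which only Ccne2 met the 2-fold limit on the control levels. The helicase subunit gene Mcm5 had 1895, 1646, 1527 and 1837 normalized counts in KOPALM, 3219, 3308, 3369 and 3224 in KOCTRL, 3947, 3945, 3848 and 3979 in WTPALM and 5460.0, 5435, 5685 and 5024 in WTCTRL. Its 4 groups did not overlap, and KOPALM was the lowest. It fell by 0.93 in KO and by 0.46 in WT on the log2 scale, a difference of -0.47 ± 0.073 (adjusted p = 0.000363). Mcm2 of the same complex showed -0.91 ± 0.042 in KO and -0.52 ± 0.042 in WT (difference -0.39 ± 0.060, adjusted p = 0.00018), while its mean fell by 1944 normalized counts in KO and fell by 2283 in WT. Gins2, a subunit of the same helicase, showed -0.78 ± 0.060 in KO and -0.38 ± 0.060 in WT (difference -0.39 ± 0.084, adjusted p = 0.00267). Pcna, the sliding clamp, differed by -0.33 ± 0.070 (adjusted p = 0.00533). The licensing factor Cdc6 had the strongest fall of the list in KO at -1.21 ± 0.065, against -0.84 ± 0.065 in WT (difference -0.37 ± 0.092, adjusted p = 0.0111), while its mean fell by 419 normalized counts in KO and fell by 619.5 in WT. Ccne2, cyclin E2, fell by 1.09 in KO and by 0.71 in WT (difference -0.38 ± 0.11, adjusted p = 0.0179). Its mean was 286 normalized counts in KOCTRL and 620.0 in WTCTRL, and in counts the loss was smaller in KO. Leaving out single libraries gave 18 to 20 called members.

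Mitotic genes followed at a smaller size. Palmitate lowered 24 of 26 in KO and 14 in WT and raised none. The response was lower in KO for 11 (42.3%) and higher for none (median difference -0.13). Of all genes tested, 5.71% were lower and 4.19% higher. Foxm1, the transcription factor of G2/M genes, had 2993, 3105, 2768 and 3077 normalized counts in KOPALM, 3698, 3805, 3827 and 3876 in KOCTRL, 4168, 4255, 4374 and 4511 in WTPALM and 4658, 4920.3, 4639.9 and 4598 in WTCTRL. It fell in both, by 0.35 in KO and by 0.12 in WT (difference -0.23 ± 0.048, adjusted p = 0.00193). The mitotic kinase gene Plk1 was KO-specific, with -0.18 ± 0.032 in KO and 0.042 ± 0.032 in WT (difference -0.22 ± 0.045, adjusted p = 0.00164). Its KOPALM libraries lay below the KOCTRL ones, and WTPALM overlapped WTCTRL.

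NRF2 and antioxidant genes rose in larger number in WT. Palmitate raised 8 of 22 in KO and 15 in WT, and lowered 6 in KO and 2 in WT. The response was lower in KO for 11 (50%, against 5.71% of all genes tested). It was higher for 1 (4.55%, against 4.19%), the cystine importer Slc7a11 described above. The median difference was -0.14. The count of 11 was 7 without replicate 2 of KOPALM and likewise without replicate 2 of KOCTRL. Gsta4, a glutathione transferase for lipid peroxidation products, had 2936, 2569.8, 2870.2 and 2745 normalized counts in KOPALM, 3238, 3166, 3161 and 3080.2 in KOCTRL, 255, 238, 239 and 236 in WTPALM and 189, 164, 192 and 164 in WTCTRL. KOPALM was below KOCTRL and WTPALM above WTCTRL, each without overlap, so the responses were opposite at -0.19 ± 0.052 in KO and 0.45 ± 0.052 in WT (difference -0.64 ± 0.073, adjusted p = 1.66e-06). G6pdx, which makes NADPH in the pentose phosphate pathway, was also opposite, with -0.24 ± 0.039 in KO and 0.18 ± 0.039 in WT (difference -0.42 ± 0.055, adjusted p = 1.03e-05). Gclc, the catalytic subunit of glutathione synthesis, had 24511, 22815, 23646 and 23298 normalized counts in KOPALM, 23591, 23440.0, 22730.0 and 22769 in KOCTRL, 4665, 4584, 4714 and 4728 in WTPALM and 3809, 3664, 3634 and 3762 in WTCTRL. The KO groups overlapped, and WTPALM lay above WTCTRL (0.027 ± 0.026 in KO, 0.33 ± 0.026 in WT, difference -0.30 ± 0.037, adjusted p = 3.76e-06). Catalase (Cat) and ferritin heavy chain (Fth1) had differences of -0.25 and -0.22. Hmox1, heme oxygenase, rose by 0.66 in KO and 0.99 in WT, and its difference of -0.33 ± 0.10 did not pass (adjusted p = 0.064, called under 6 of 26 alternatives). Gsta1, which shares much of its sequence with other alpha-class transferases so that reads may be split between copies, had 457, 409, 515 and 451 normalized counts in KOPALM, 698, 671, 597 and 689 in KOCTRL, 34, 26.1, 18.9 and 23.9 in WTPALM and 13.7, 15.4, 14.6 and 4.31 in WTCTRL (difference -1.68 ± 0.42, adjusted p = 0.0218). KO libraries lay above all WT libraries in both treatments, KOPALM lay below KOCTRL and WTPALM above WTCTRL, and only the WT response passed.

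Genes of fatty acid use rose in both genotypes, and Cpt1a, Pdk4 and Plin2 rose by a smaller factor in KO, from higher starting levels. Palmitate raised 17 of 29 PPAR and oxidation genes in KO and 19 in WT, and lowered 1 in each. Over all genes tested, palmitate raised 18.7% in KO and 17.7% in WT. The difference was higher in KO for 3 (10.3%) and lower for 5 (17.2%), with a median of 0.0100. Of all genes tested, 4.19% were higher and 5.71% lower. Cpt1a, which controls entry into mitochondrial fatty acid oxidation (chromosome 19, 3322334 to 3385733), had 20343, 20376, 20588 and 19598 normalized counts in KOPALM, 12709, 12806, 12561 and 12886 in KOCTRL, 7758, 7776, 8026 and 8036 in WTPALM and 2749, 2786, 2896 and 3037 in WTCTRL. Every KO library lay above every WT library, and palmitate separated the groups within each genotype. The rise was 0.67 ± 0.028 in KO and 1.46 ± 0.028 in WT, a difference of -0.80 ± 0.040 (adjusted p = 1.85e-13, the smallest of the named genes). In normalized counts the order was turned round, since the mean grew by 7486 in KO and 5032 in WT. Pdk4, the kinase that shuts pyruvate dehydrogenase, rose by a smaller factor in KO too, with 1.10 ± 0.059 in KO and 1.61 ± 0.059 in WT (difference -0.51 ± 0.084, adjusted p = 0.00018), and gained 526 normalized counts in KO and 416 in WT. Plin2, a lipid droplet coat protein, did too, at 0.66 ± 0.031 in KO and 0.89 ± 0.031 in WT (difference -0.24 ± 0.044, adjusted p = 0.000749), with gains of 3301 normalized counts in KO and 2301 in WT. Angptl4, a secreted inhibitor of lipoprotein lipase, had its higher log2 rise in KO, 1.99 ± 0.067 against 1.46 ± 0.067 in WT (difference 0.53 ± 0.095, adjusted p = 0.00122). It gained more normalized counts in WT, where its mean was 3011 after palmitate against 1423 in KOPALM. These 4 genes were in the baseline-dependent class.

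Creb3l3, a liver transcription factor of fasting and an ER membrane protein, had 134, 176, 155 and 183 normalized counts in KOPALM, 35.4, 29.2, 44.3 and 50.3 in KOCTRL, 4, 6.52, 4.3 and 8.25 in WTPALM and 6.83, 4.54, 9.41 and 4.31 in WTCTRL. The KOPALM libraries lay above those of KOCTRL, and no WT library exceeded 10. Its difference was 2.11 ± 0.35 (adjusted p = 0.000213). In reads, Creb3l3 had 630 in all of KOPALM, 141 in KOCTRL, 28 in WTPALM and 26 in WTCTRL. Its fitted difference depends on the pseudocount.

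Triglyceride and lipid droplet genes had 6 of 20 called lower (30.0%) and none higher, with a median difference of -0.058. The higher count was 1 without replicate 1 of WTCTRL. Cideb, which acts in droplet fusion and lipoprotein loading, had 1300.2, 1356, 1442 and 1472 normalized counts in KOPALM, 1024, 1051, 1008 and 1027 in KOCTRL, 85.1, 87, 105 and 106 in WTPALM and 44.4, 41.8, 59.6 and 55 in WTCTRL (difference -0.49 ± 0.13, adjusted p = 0.0149). It rose in both genotypes, KO libraries were far above WT ones, and the mean gained 365 normalized counts in KO and 45.7 in WT, which put it in the baseline-dependent class. Of the 6 called members, 3 had the other direction in normalized counts. Plin4 was WT-specific with -0.20 in KO and 0.21 in WT (difference -0.40 ± 0.11, adjusted p = 0.0216, lost under 5 of 26 alternatives). Its responses were of like size and opposite sign, and only the WT one passed (limma adjusted p = 0.0561 in KO, 0.0430 in WT). Treated and control libraries overlapped in both genotypes. The Plin4 mean was 924 normalized counts in KOCTRL and 76.6 in WTCTRL. Cholesterol synthesis genes rose in both genotypes, 24 of 25 in KO and 24 in WT, and 17 were shared. The 7 called differences went both ways, 3 higher (12%) and 4 lower (16%), against 4.19% and 5.71% of all genes tested. The sterol enzyme Nsdhl rose more in WT (0.42 ± 0.043 in KO against 0.69 ± 0.043 in WT, difference -0.27 ± 0.060, adjusted p = 0.00407). Fatty acid synthesis had 11 of 19 shared genes, with 2 differences called higher (10.5%) and 3 lower (15.8%). The 2 were 1 without replicate 4 of KOPALM, replicate 3 of KOCTRL or replicate 2 of WTPALM. The 3 were 1 without replicate 3 of KOPALM, replicate 2 or 3 of KOCTRL, replicate 2 or 4 of WTPALM or replicate 3 or 4 of WTCTRL. Scd2, a stearoyl-CoA desaturase, which makes monounsaturated from saturated chains, rose by 0.83 ± 0.023 in KO and 0.66 ± 0.023 in WT (difference 0.18 ± 0.033, adjusted p = 0.000558), and the elongase of palmitate Elovl6 rose in WT only (-0.033 ± 0.031 in KO, 0.14 ± 0.031 in WT, difference -0.18 ± 0.043, adjusted p = 0.00783).

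**Figure D4:**
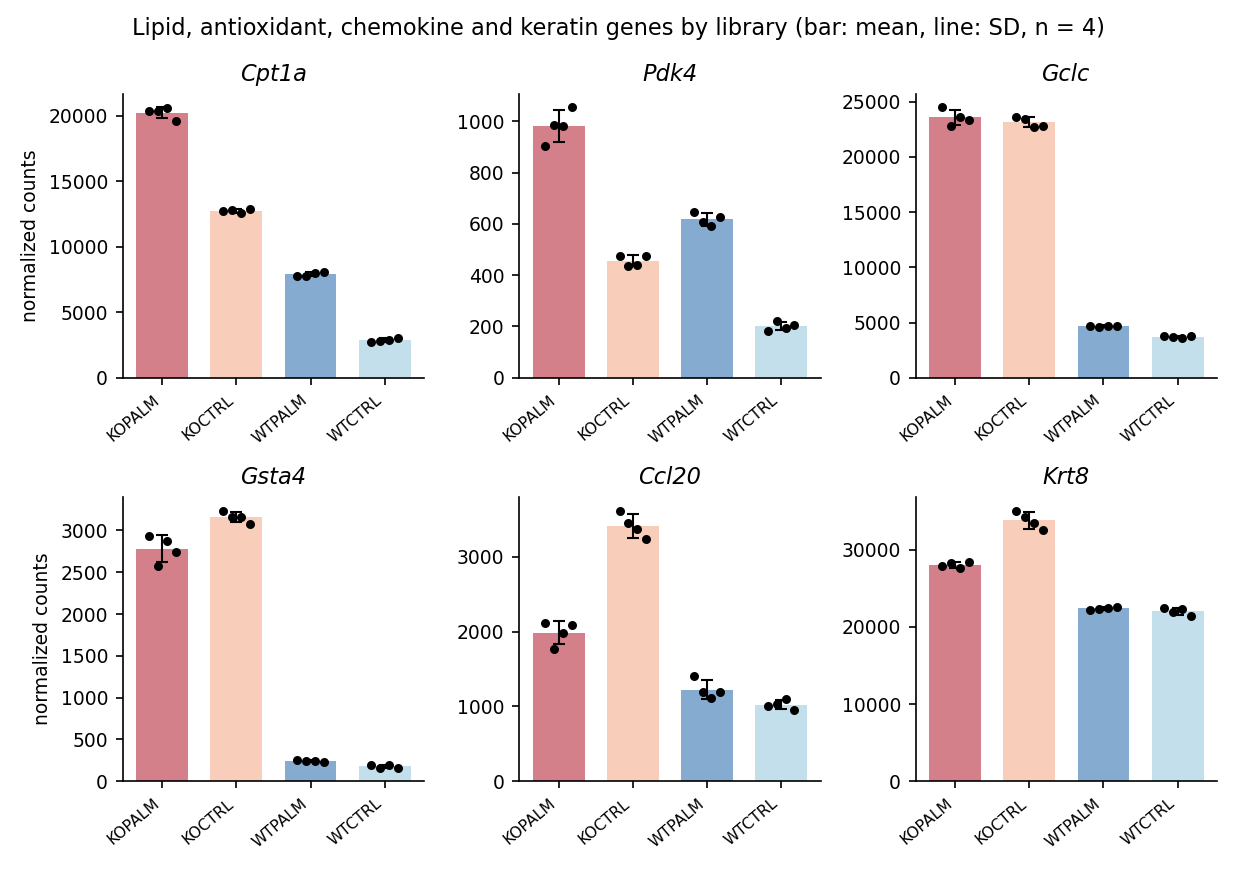
Normalized counts (y axis, linear) of 6 genes in each library, with the 4 groups on the x axis; bars are means, lines SD (n = 4) and points libraries. Cpt1a and Pdk4 step up in both genotypes, Gclc steps up in WT only, and Gsta4 and Ccl20 step down in KO and up in WT.

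Inflammatory genes moved in both directions. Of 26 NF-kB genes, 7 (26.9%) had a higher and 8 (30.8%) a lower response in KO, against 4.19% and 5.71% of all genes tested. Among the lower ones were genes of the NF-kB pathway itself (Nfkb2, Relb, Nfkbia, Birc3) and adhesion genes. The chemokine gene Ccl20 had 2114, 1769, 1984 and 2087 normalized counts in KOPALM, 3620.2, 3451, 3371 and 3233 in KOCTRL, 1409.7, 1189.6, 1107 and 1196 in WTPALM and 1006, 1037, 1101 and 949.5 in WTCTRL. KOPALM lay below KOCTRL, WTPALM lay above WTCTRL, and every KO library exceeded every WT library. The responses were opposite, -0.78 ± 0.072 in KO and 0.26 ± 0.072 in WT (difference -1.04 ± 0.10, adjusted p = 1.41e-05). Icam1, an adhesion receptor for leukocytes, was WT-specific at -0.068 ± 0.036 in KO and 0.32 ± 0.036 in WT (difference -0.38 ± 0.051, adjusted p = 1.25e-05). Vcam1, Nfkb2, Relb and Nfkbia, which encodes the inhibitor IκBα, had differences of -0.47, -0.33, -0.31 and -0.22. Of the higher ones, Saa3, an acute phase protein, had 97.7, 68.5, 73.4 and 75.2 normalized counts in KOPALM, 80.0, 71.7, 87.3 and 77.9 in KOCTRL, 21, 17.4, 21.5 and 23.1 in WTPALM and 58, 59, 64.8 and 51.7 in WTCTRL. KO groups overlapped and WTPALM lay below WTCTRL, so the gene fell in WT only (-0.020 ± 0.15 in KO, -1.45 ± 0.15 in WT, difference 1.43 ± 0.21, adjusted p = 3.18e-05). Nos2, inducible nitric oxide synthase, rose by 1.26 ± 0.074 in KO and 0.43 ± 0.074 in WT (difference 0.83 ± 0.10, adjusted p = 5.41e-06). Its mean gained 137 normalized counts in KO, from 97.6 in KOCTRL, and 133 in WT, from 386 in WTCTRL. Ptgs2 (cyclooxygenase-2), Cxcl10 and Cxcl1 had differences of 0.57, 0.67 and 0.39. Interferon-stimulated genes had 2 of 25 called (8.00%, against 9.9% of all genes). They were H2-K1, a class I antigen gene of a family with close copies (-0.35 ± 0.040, adjusted p = 1.66e-06), and Rsad2 (1.20 ± 0.37, adjusted p = 0.0389, lost under 13 of 25 alternatives), whose KO libraries held 17.3, 10.9, 13.3 and 17.6 normalized counts in KOPALM and 3.93, 1.22, 1.2 and 3.8 in KOCTRL. The Rsad2 difference ran from 0.089 to 1.43 over the alternatives, the lowest with a pseudocount of 10. Both genes were baseline-dependent. In normalized counts H2-K1 gained 728 in KO and 489.6 in WT, and Rsad2 gained 12.3 in KO and 41.1 in WT. The higher count was 0 without replicate 1 or 4 of KOPALM, replicate 2 or 3 of KOCTRL, any replicate of WTPALM or replicate 1, 2 or 3 of WTCTRL and 2 without replicate 4 of KOCTRL, and the lower count 3 without replicate 4 of WTCTRL. Of the macrophage and leukocyte markers 5 of 12 passed the filter. Of these 5, 1 had a called difference (20%, against 9.9% of all genes), Cd14 (-0.21 ± 0.057, adjusted p = 0.0188). That count was 2 without replicate 1 of KOPALM. Adgre1, Clec4f, Marco and Cd3e of that list were at 0 in every group, and the summed list ran from 2976 to 3377 normalized counts in KOPALM, 2721 to 2914 in KOCTRL, 2027 to 2068 in WTPALM and 1624 to 1726 in WTCTRL. The part of these sums in the NF-kB values was not tested.

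Of 32 immediate-early and ERK feedback genes, 3 were called higher (9.38%) and 5 lower (15.6%), against 4.19% and 5.71% of all genes tested. Without replicate 1 of KOPALM 5 were higher. Egr2, an early growth response factor, had 17.3, 17.4, 32.2 and 12.1 normalized counts in KOPALM, 3.93, 3.65, 5.98 and 0.95 in KOCTRL, 56.1, 81.2, 75.7 and 78.4 in WTPALM and 47.8, 52.7, 41.8 and 43.1 in WTCTRL (difference 1.59 ± 0.43, adjusted p = 0.0164). KO libraries lay below WT libraries in both treatments. Its mean gained 16.1 normalized counts in KO and 26.5 in WT, so it was baseline-dependent, and with a pseudocount of 10 the difference was 0.55 and not called. Spry4, an inhibitor of receptor tyrosine kinase signalling, was KO-specific at 0.95 ± 0.13 in KO and 0.20 ± 0.13 in WT (difference 0.75 ± 0.19, adjusted p = 0.0103). Klf4 rose more in WT (0.51 ± 0.057 in KO, 0.94 ± 0.057 in WT, difference -0.43 ± 0.081, adjusted p = 0.000745), and the ERK phosphatase genes Dusp4 and Dusp6 rose in WT only, with differences of -0.61 and -0.39.

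In lists tied to PTP1B, the share of members with a called difference was 20.7% for the insulin, IGF and FOXO pathway, 15.4% for JAK-STAT signalling and 16% for tyrosine phosphatases, against 9.9% of all genes tested (4.19% higher and 5.71% lower). In the insulin, IGF and FOXO list 2 of 29 were higher (6.90%) and 4 lower (13.8%). The 2 were 1 without replicate 2, 3 or 4 of KOPALM, any replicate of KOCTRL, replicate 1, 3 or 4 of WTPALM or replicate 1, 2 or 3 of WTCTRL. Igf1, the growth factor, was WT-specific at -0.18 ± 0.079 in KO and 0.35 ± 0.079 in WT (difference -0.52 ± 0.11, adjusted p = 0.00229), and Igfbp3, its binding protein, fell in KO only (-0.62 ± 0.10, against -0.035 ± 0.10 in WT, difference -0.58 ± 0.15, adjusted p = 0.00984). In the JAK-STAT list 3 of 26 were higher (11.5%) and 1 lower (3.85%). The count of lower genes was 0 without replicate 3 or 4 of KOPALM, replicate 2 or 4 of KOCTRL, replicate 2, 3 or 4 of WTPALM or replicate 2 or 3 of WTCTRL and 2 without replicate 4 of WTCTRL. Cish, a cytokine-induced feedback inhibitor, had 258, 263, 254 and 276 normalized counts in KOPALM, 254, 249, 276 and 246 in KOCTRL, 404, 455, 365 and 452 in WTPALM and 523, 588, 488 and 556 in WTCTRL. The KO groups overlapped and WTPALM lay below WTCTRL, giving a WT-specific fall (difference 0.40 ± 0.10, adjusted p = 0.00862). Ghr, the growth hormone receptor, fell in WT without a called KO response (0.11 ± 0.047 in KO, -0.19 ± 0.047 in WT, difference 0.29 ± 0.066, adjusted p = 0.00393). Of the 25 classical tyrosine phosphatases measured, 2 were higher (8.00%) and 2 lower (8.00%), each near the share over all genes. The 2 higher ones were 1 without replicate 3 of KOPALM, replicate 1 of KOCTRL, replicate 4 of WTPALM or replicate 2 of WTCTRL, and the 2 lower ones 1 without replicate 2 or 3 of KOPALM, replicate 1 or 2 of KOCTRL, replicate 1 or 2 of WTPALM or replicate 4 of WTCTRL. The 4 were Ptpn4 (0.24 ± 0.067, adjusted p = 0.0209, lost under 4 of 26 alternatives), Ptprk (0.19 ± 0.041), Ptpn21 (-0.19 ± 0.057) and the endosomal Ptpn23 (-0.23 ± 0.055, adjusted p = 0.00779).

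The lists of cell death, p53, lysosome and clock genes had 12.5% to 17.6% of members called, against 9.9% of all genes tested. The p53 list was the nearest to that share. The BCL2 and caspase list had 4 of 26 called, all lower (15.4%). Pmaip1, which encodes the pro-death BH3 protein NOXA, had 1778, 1739.6, 1735 and 1706 normalized counts in KOPALM, 1743, 1683, 1736 and 1722 in KOCTRL, 1825, 1710.1, 1874 and 1678 in WTPALM and 1377, 1376, 1380.1 and 1355 in WTCTRL. The KO groups overlapped, WTPALM lay above WTCTRL, and the difference was -0.35 ± 0.047 (adjusted p = 1.38e-05). Among p53 targets, 1 of 24 was higher, Btg2 (0.25 ± 0.078, adjusted p = 0.0395, lost under 14 of 26 alternatives), and 2 were lower (8.33%). The 2 were 1 without replicate 2 of KOPALM, replicate 1 or 3 of KOCTRL, replicate 4 of WTPALM or replicate 4 of WTCTRL. Of 36 autophagy and lysosome genes 5 were lower (13.9%) and none higher, 10 were lower without replicate 1 of KOPALM, and the higher count was 1 without replicate 4 of KOPALM, replicate 4 of KOCTRL or replicate 2 of WTCTRL. Sqstm1, the autophagy receptor p62, which is also in the antioxidant list, rose in both, by 0.34 ± 0.028 in KO and 0.72 ± 0.028 in WT (difference -0.38 ± 0.039, adjusted p = 2.4e-07). Hexa, a lysosomal hexosaminidase subunit, was opposite at -0.13 ± 0.043 in KO and 0.24 ± 0.043 in WT (difference -0.36 ± 0.060, adjusted p = 0.00018). Of 17 clock genes 3 were lower (17.6%), including the repressors Bhlhe40 (-0.31 ± 0.053, adjusted p = 0.00023) and Bhlhe41, which fell in KO and rose in WT (-0.41 ± 0.070, adjusted p = 0.000331).

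Epithelial markers changed in larger number in KO. Of 18 measured progenitor and cholangiocyte markers, palmitate raised 5 and lowered 9 in KO, and raised 4 and lowered 4 in WT. The response was higher in KO for 3 (16.7%) and lower for 7 (38.9%), against 4.19% and 5.71% of all genes tested. The 3 higher ones were 1 without any one of 9 libraries (replicates 2, 3 and 4 of KOPALM, 2 and 3 of KOCTRL and WTPALM, 3 and 4 of WTCTRL). Krt8, a simple epithelial keratin, had 27841, 28327, 27607 and 28408 normalized counts in KOPALM, 35088, 34227, 33526 and 32521 in KOCTRL, 22241, 22386, 22430.0 and 22637 in WTPALM and 22396, 21925, 22294 and 21472 in WTCTRL. KOPALM was below KOCTRL without overlap, and the WT groups overlapped (-0.27 ± 0.025 in KO, 0.026 ± 0.025 in WT, difference -0.30 ± 0.035, adjusted p = 2.71e-06). Its partner Krt18 had a difference of -0.26 and Krt7 one of -0.23, whereas Krt19 had one of 0.21. Sox9, the biliary transcription factor, rose by 0.21 ± 0.064 in KO and 0.56 ± 0.064 in WT (difference -0.34 ± 0.091, adjusted p = 0.0177, lost under 1 of 26 alternatives). It was baseline-dependent, since its mean gained 307 normalized counts in KO and 161 in WT. Lgr5, the R-spondin receptor, rose in KO only (0.66 ± 0.21, adjusted p = 0.0417, lost under 14 of 26 alternatives). Of 21 hepatocyte markers 14 passed the filter, 2 with a higher (14.3%) and 2 with a lower response in KO (14.3%). Over all genes tested these shares were 4.19% and 5.71%. Some of the 14 passed the filter through KO alone, so their WT response rests on few reads. Alb averaged 4836 normalized counts in KOPALM and 3638 in KOCTRL, against 0.86 in WTPALM and 1.43 in WTCTRL. The 2 higher ones were 1 without replicate 1, 3 or 4 of KOPALM, replicate 1, 2 or 4 of KOCTRL, replicate 2 or 3 of WTPALM or replicate 1 or 3 of WTCTRL, and the 2 lower ones 1 without replicate 1, 2 or 4 of KOPALM, replicate 2 or 4 of KOCTRL, any replicate of WTPALM or replicate 1 of WTCTRL. Fgb, the fibrinogen beta chain, rose in KO only (0.34 ± 0.048, against -0.057 ± 0.048 in WT, difference 0.40 ± 0.067, adjusted p = 0.000246). Its mean was 2953 normalized counts in KOCTRL and 203 in WTCTRL. Apob, the lipoprotein scaffold, had 30329 normalized counts in KOPALM, 26706 in KOCTRL, 663 in WTPALM and 439 in WTCTRL, and a difference of -0.42 ± 0.12 (adjusted p = 0.0393, lost under 12 of 26 alternatives). Its mean gained 3623 in KO and 224 in WT. No endothelial (6 measured) or stellate marker (10 measured) had a called difference by limma, edgeR or DESeq2. At an unadjusted p under 0.05 there were 0 endothelial and 2 stellate ones. Some of these markers were near 0 in 1 genotype, where a response can hardly be measured. Hgf averaged 0 normalized counts in both KO groups, against 25.1 in WTPALM and 21.3 in WTCTRL. Stab2 averaged 1.24 in WTPALM and 0 in WTCTRL, against 16.4 in KOPALM and 11.6 in KOCTRL. Others, such as Eng and Pdgfrb, had counts in every group. For the low ones the lack of a call says little. In the stellate list a higher response was called for 1 without replicate 1 of KOPALM or replicate 3 of KOCTRL, and a lower one for 1 without replicate 1 of KOPALM, replicate 4 of KOCTRL or replicate 4 of WTCTRL. Tie1 and Lrat, of these lists, were at 0 in every group.

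Of 32 matrix and mesenchymal genes 6 were higher (18.8%) and 2 lower (6.25%), with 3 higher without replicate 1 or replicate 2 of KOCTRL. Of all genes tested, 4.19% were higher and 5.71% lower, so the lower share of this list was near that over all genes. The 2 lower ones were 1 without replicate 1 or 2 of KOPALM, replicate 2 or 3 of KOCTRL, any replicate of WTPALM or replicate 2, 3 or 4 of WTCTRL. Of 22 TGF-beta genes 2 were higher (9.09%) and 3 lower (13.6%), with 5 higher without replicate 4 of WTCTRL. Snai2, a transcription factor of epithelial-mesenchymal transition, rose more in KO (0.68 ± 0.068, against 0.17 ± 0.068 in WT, difference 0.51 ± 0.10, adjusted p = 0.000699). Thbs2, a matricellular protein, had a KO rise of 0.44 ± 0.091 at 93.4 normalized counts in KOPALM, against -0.034 ± 0.091 at 2628 in WTPALM (difference 0.47 ± 0.13, adjusted p = 0.0239, lost under 4 of 26 alternatives). Bambi, a decoy receptor of the TGF-beta family, had 279, 284, 278 and 281 normalized counts in KOPALM, 163, 164, 193 and 187 in KOCTRL, 50.1, 41.3, 54.2 and 47 in WTPALM and 46.1, 49.1, 46 and 48.5 in WTCTRL. It rose in KO without overlap, and the WT groups overlapped (0.65 ± 0.14, adjusted p = 0.00344). Tgfb3, the ligand, fell in KO only (-0.30 ± 0.072, adjusted p = 0.00754, lost under 1 of 26 alternatives). Its mean was 2761 normalized counts in KOCTRL and 153 in WTCTRL.

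**Figure D5:**
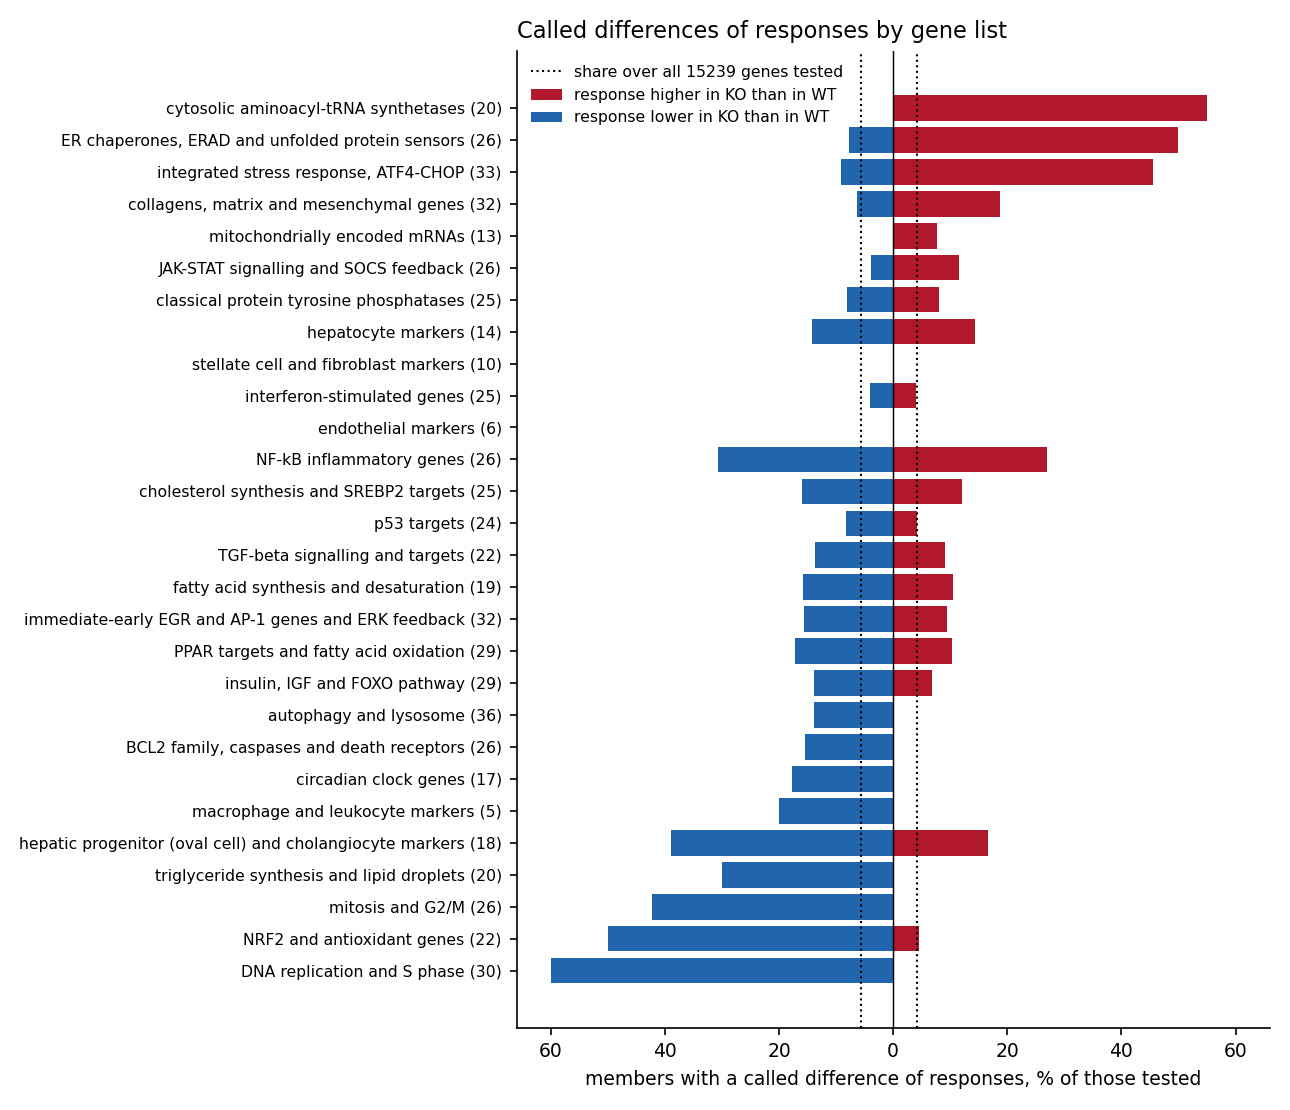
Share of the measured members of each list (number in brackets) with a called difference of responses, higher in KO to the right and lower to the left, in percent; dotted lines give the shares over all 15239 genes tested, 4.19% and 5.71%. Synthetases, ER and stress lists reach 45.5% to 55% on the right, and replication and NRF2 lists 60% and 50% on the left.

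Outside the lists, the opposite class was led by Fmnl1, Slc43a3 and Fam171b, among genes that averaged at least 50 normalized counts in 1 group. Fmnl1, a formin of the actin cortex, had 595, 579, 539 and 579 normalized counts in KOPALM, 775, 716, 726 and 711 in KOCTRL, 25, 28.3, 43 and 35.5 in WTPALM and 15.4, 15.4, 10.4 and 18.3 in WTCTRL (difference -1.44 ± 0.20, adjusted p = 3.05e-05). KOPALM lay below KOCTRL and WTPALM above WTCTRL, and KO lay above WT throughout. Slc43a3, a purine base transporter, had -0.71 ± 0.10 in KO and 0.34 ± 0.10 in WT (difference -1.05 ± 0.15, adjusted p = 2.23e-05). Fam171b had -0.63 ± 0.081 in KO and 0.37 ± 0.081 in WT (difference -1.0 ± 0.12, adjusted p = 1.66e-06). The median absolute responses in the opposite class were 0.15 in KO and 0.16 in WT, so a typical gene of this class changed little in either genotype.

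By the same minimum level, KO-specific rises were led by Cyp2c23, an arachidonic acid epoxygenase (1.01 ± 0.23 in KO, -0.55 ± 0.23 in WT, difference 1.55 ± 0.33, adjusted p = 0.00213), and St6galnac4, a sialyltransferase (0.81 ± 0.18, adjusted p = 0.00318). Cyp2c23 averaged 86.7 normalized counts in KOPALM, 43.2 in KOCTRL, 8.09 in WTPALM and 12.4 in WTCTRL. Its WT response rested on 39 reads in all of WTPALM and 52 in all of WTCTRL. KO-specific falls were led by Spn, the sialophorin CD43 (-0.97 ± 0.20, adjusted p = 0.00142), and Cldn15, a tight junction channel (-0.91 ± 0.28, adjusted p = 0.0353, lost under 12 of 25 alternatives). In WT, Sox13, a SOX transcription factor, fell without a called KO response (0.15 ± 0.12 in KO, -0.86 ± 0.12 in WT, difference 1.02 ± 0.17, adjusted p = 0.000194), and Ank1, an ankyrin of the membrane skeleton, rose (-0.32 ± 0.15 in KO, 0.55 ± 0.15 in WT, difference -0.87 ± 0.21, adjusted p = 0.00588). The responses larger in WT were led by Dhrs9, a retinol dehydrogenase (0.72 ± 0.15 in KO, 1.77 ± 0.15 in WT, difference -1.05 ± 0.21, adjusted p = 0.00113), and Depp1, a FOXO target (0.18 ± 0.054 in KO, 0.79 ± 0.054 in WT, difference -0.62 ± 0.076, adjusted p = 3.76e-06). Fst, follistatin, which binds activin, fell more in WT (-0.32 ± 0.066 in KO, -0.77 ± 0.066 in WT, difference 0.45 ± 0.094, adjusted p = 0.0032).

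Among the baseline-dependent genes, the log2 difference and the difference in counts can point in opposite directions. Aqp9, the glycerol channel of hepatocytes, had 918, 861, 899.6 and 909 normalized counts in KOPALM, 598, 608, 644 and 697 in KOCTRL, 15, 13.1, 15.5 and 11.6 in WTPALM and 1.71, 1.82, 2.09 and 4.31 in WTCTRL. KO libraries were far above WT libraries, and both genotypes rose without overlap. The log2 rise was 0.50 ± 0.16 in KO and 2.13 ± 0.16 in WT (difference -1.64 ± 0.22, adjusted p = 1.7e-05), while the mean gained 260.2 normalized counts in KO and 11.3 in WT. With a pseudocount of 10 the difference was -0.44. Adm2, a peptide of the adrenomedullin family, had 17.3, 13, 22.2 and 19.5 normalized counts in KOPALM, 0, 2.43, 4.79 and 5.7 in KOCTRL, 118, 129.8, 125 and 116 in WTPALM and 112, 108, 95.1 and 98.1 in WTCTRL (difference 2.22 ± 0.60, adjusted p = 0.0271, lost under 4 of 26 alternatives). Every KO library lay below every WT library, and palmitate separated the groups within each genotype, but only the KO response passed. Ednra, the endothelin A receptor, had 1 read in all of KOPALM and 9 in all of KOCTRL, against a mean of 139 normalized counts in WTPALM and 138 in WTCTRL, so its KO response rested on those few reads (adjusted p = 0.00599, lost under 2 of 26 alternatives). Pilrb1, which has a close paralog, had 18 reads in WTPALM and 6 in WTCTRL, and Tex15 8 and 3. Both calls were lost under 17 of 26 alternatives.

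Of the 22 genes with a called difference and no called response, those that averaged at least 50 normalized counts in their highest group were led by Acsbg1 (-0.49 ± 0.15), Aldh1l1 (-0.41 ± 0.13), Mkx (0.33 ± 0.11) and Miip (-0.26 ± 0.080), and these 4 calls were lost under 9 to 16 of 26 alternatives. By the same minimum level, and ranked by the smaller of the KO and WT responses, the largest shared rises were those of Csf2, a growth factor of myeloid cells (2.54 ± 0.15 in KO, 2.10 ± 0.15 in WT), the EGF receptor ligand Areg (2.66 ± 0.26 in KO, 2.01 ± 0.26 in WT), the lipase-like Pnpla3 (1.73 ± 0.41 in KO, 1.34 ± 0.41 in WT) and the clock repressor Ciart (1.49 ± 0.12 in KO, 1.33 ± 0.12 in WT). Their differences did not pass (adjusted p = 0.194, 0.308, 0.741 and 0.641), which does not show that the responses were equal. Pnpla3 had at most 5.16 normalized counts in any WT library. The largest shared falls, ranked likewise, were those of the chemokine Ppbp (-1.16 ± 0.081 in KO, -1.09 ± 0.081 in WT), the urokinase gene Plau (-1.04 ± 0.069 in KO, -1.02 ± 0.069 in WT), the uracil glycosylase gene Ung (-1.06 ± 0.065 in KO, -0.96 ± 0.065 in WT) and Lpcat1, which remodels phospholipids (-0.81 ± 0.050 in KO, -0.97 ± 0.050 in WT).

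Ribosomal and mitochondrial RNA moved with genotype and treatment too. Annotated rRNA took 0.101% to 0.107% of reads in KOPALM, 0.0812% to 0.0863% in KOCTRL, 0.058% to 0.0624% in WTPALM and 0.0525% to 0.0543% in WTCTRL. Mitochondrial mRNA took 3.93% to 4.22% in KOPALM, 3.39% to 3.72% in KOCTRL, 3.57% to 3.8% in WTPALM and 3.44% to 3.55% in WTCTRL. Of its 13 genes 1 had a called difference (7.69%, against 9.9% of all genes tested). It was mt-Co1 (0.15 ± 0.039, adjusted p = 0.0119, lost under 2 of 26 alternatives). That count was 2 without replicate 3 of KOPALM or replicate 3 of WTCTRL. Of the 13 differences 12 were above 0 and 1 below, with a median of 0.15 against 0.00041 over all genes tested. Palmitate raised 4 and lowered none in KO, and raised none and lowered 2 in WT. The shared direction was not tested. The part of the rRNA and mitochondrial mRNA shares in the differences described above was not tested.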

How the data were processed

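The deposited table holds 55421 mouse genes in 16 libraries of rRNA-depleted total RNA. Its values are a normalized count signal that the authors made, and the submitters' processing notes name STAR, RSEM, DESeq2 and limma without roles or versions. The genome build was not given in the sources used here. With version numbers, 54587 gene identifiers were found in GENCODE vM21 (GRCm38), which gave symbols and coordinates. In each library 99.9952% to 100% of the values above 0 were multiples of 1 read's worth (within 0.1 read), so reads could be recovered (21553952 to 35693442 per library) for edgeR 4.0.16 and DESeq2 1.42.0 as alternatives.

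Since the values are not raw counts, limma 3.58.1 in R 4.3.3 was fitted to log2(value + 1) with 4 group means, a trended robust prior and Benjamini-Hochberg adjustment over 15239 genes with at least 10 normalized counts in at least 4 libraries. Calls needed an adjusted p under 0.05, two-sided. The code was tested on simulated counts. Alternatives changed the pseudocount, filter, scaling, test and a replicate term, required 1.5-fold, or left out each library. Tables and figures used Python 3.11.15 with pandas 2.3.3, scipy 1.17.1 and matplotlib 3.10.9.

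A gene called for the difference was first put in the baseline-dependent class where its mean was under 10 in both groups of 1 genotype, or where the difference in normalized counts had the other sign and the control groups differed by at least 2-fold. The rest were sorted by which responses were called. Members, lists and classes were chosen with earlier results of these data known. Named genes averaged at least 50 normalized counts in their highest group and were the 8 highest and 8 lowest differences, the 4 largest per class, and up to 2 called members per list. Atf4, Atf3, Ddit3, Asns, Psph, Cars, Calr, Hyou1, Xbp1, Mcm2, Pcna, Cdc6, Ccne2, Gclc, G6pdx, Hmox1, Plin2, Pdk4, Angptl4, Nos2, Icam1, Krt8, Sec24d, Sec61a1, Stt3a and other list members named outside this rule were chosen after their values were seen. Some genes of the lists are not reported here.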

Additional observations from a re-analysis of the deposited data

Results flagged for a closer look

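In 424 groups of 4 libraries checked across the named genes, 22 (5.19%) held 1 library whose distance to the nearest of the others took up so much of the group's range that it passed Dixon's 95% critical value. Chance marks about 1 in 20 groups in this way. The highest library stood apart, in normalized counts, for Cyp2c23 in KOPALM 3 (116), Fst in KOPALM 3 (498), Fst in WTPALM 1 (1075), Asns in WTCTRL 1 (2450), Csf2 in WTCTRL 2 (35.4), Calr in KOPALM 4 (21606), Ciart in WTCTRL 3 (85.7), Ccne2 in KOCTRL 3 (293), Gsta4 in WTPALM 1 (255), Ednra in KOPALM 4 (0.93) and Aqp9 in WTCTRL 4 (4.31). The lowest library stood apart for Sec24d in WTPALM 3 (826), Areg in WTPALM 2 (50.02), Snai2 in KOPALM 2 (190.2), Csf2 in KOCTRL 4 (24.7), Fgb in KOCTRL 1 (2889.6), Sec61a1 in KOPALM 1 (7666), Tgfb3 in KOPALM 1 (2141), Pcna in KOCTRL 4 (5132), Pmaip1 in WTCTRL 4 (1355), Depp1 in WTCTRL 4 (432) and Gsta1 in WTCTRL 4 (4.31).

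The difference of responses was itself called for 95 named genes (limma, Benjamini-Hochberg). The log2 KO response minus the log2 WT response was above 0 for Adm2 (2.22), Creb3l3 (2.11), Trib3 (2.08), Chac1 (1.73), Egr2 (1.59), Cyp2c23 (1.55), Saa3 (1.43), Rsad2 (1.20), Slc7a11 (1.15), Sox13 (1.02), Slc1a4 (1.01), Mthfd2 (0.99), Sec24d (0.96), Nos2 (0.83), St6galnac4 (0.81), Spry4 (0.75), Lgr5 (0.66), Bambi (0.65), Psph (0.53), Angptl4 (0.53), Snai2 (0.51), Thbs2 (0.47), Hspa5 (0.46), Fst (0.45), Asns (0.44), Atf3 (0.42), Yars (0.42), Sdf2l1 (0.41), Cish (0.40), Fgb (0.40), Mkx (0.33), Hyou1 (0.33), Ghr (0.29), Aars (0.28), Atf4 (0.26), Btg2 (0.25), Ptpn4 (0.24), Stt3a (0.23), Calr (0.23), Xbp1 (0.19), Ddit3 (0.19), Scd2 (0.18), Sec61a1 (0.16) and mt-Co1 (0.15). It was below 0 for Elovl6 (-0.18), Cd14 (-0.21), Plk1 (-0.22), Foxm1 (-0.23), Ptpn23 (-0.23), Plin2 (-0.24), Miip (-0.26), Nsdhl (-0.27), Tgfb3 (-0.30), Krt8 (-0.30), Gclc (-0.30), Bhlhe40 (-0.31), Pcna (-0.33), Sox9 (-0.34), H2-K1 (-0.35), Pmaip1 (-0.35), Hexa (-0.36), Cdc6 (-0.37), Ccne2 (-0.38), Icam1 (-0.38), Sqstm1 (-0.38), Mcm2 (-0.39), Gins2 (-0.39), Plin4 (-0.40), Aldh1l1 (-0.41), Bhlhe41 (-0.41), G6pdx (-0.42), Apob (-0.42), Klf4 (-0.43), Mcm5 (-0.47), Acsbg1 (-0.49), Cideb (-0.49), Pdk4 (-0.51), Igf1 (-0.52), Igfbp3 (-0.58), Depp1 (-0.62), Gsta4 (-0.64), Cpt1a (-0.80), Ank1 (-0.87), Cldn15 (-0.91), Spn (-0.97), Fam171b (-1.0), Ccl20 (-1.04), Slc43a3 (-1.05), Dhrs9 (-1.05), Pilrb1 (-1.09), Tex15 (-1.32), Fmnl1 (-1.44), Ednra (-1.55), Aqp9 (-1.64) and Gsta1 (-1.68).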

How the results depend on the processing

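Called differences numbered 1147 to 1820 over the alternatives that kept any size of difference, against 1508, and 1187 to 1784 without each library in turn. Of 95 named genes with a called difference, 73 stayed called under each of these alternatives that could test them, 22 were lost under at least 1, and 0 turned round. edgeR called 1602 genes, 1480 of them shared with limma, and DESeq2 1558, with 1401 shared. With a minimum of 1.5-fold, 130 genes remained, 59 higher and 71 lower. Of these 33 were KO-specific, 29 WT-specific, 19 opposite, 15 larger in KO, 2 larger in WT and 10 scale-dependent, and 6 had neither response called. Genes present in 1 genotype numbered 44 with a pseudocount of 10, 32 with any value above 0, 5 with a minimum of 50 and 1 with DESeq2. Genes with neither response called numbered 14 with any value above 0. Leaving out each library gave 154 to 321 genes larger in KO, 79 to 174 larger in WT, 8 to 20 present in 1 genotype and 8 to 30 with neither response called. The causes were not tested. Replicate numbers were not used to pair the libraries in the main fit. Same-numbered deviations correlated between -0.11 and 0.061, and 2 of 16 libraries correlated best with their own number. These correlations run over all genes and cannot show whether replicates were paired in part of the genes. With the replicate block 1820 genes were called, 180 were larger in WT, 36 had neither response called, and 6 integrated stress response genes were lower in KO. Scaling moved the median difference over all genes by at most 0.02. Of list counts, the same total gave 8 lower autophagy genes, quantile normalization 7 lower cholesterol and 4 higher hepatocyte genes, DESeq2 1 higher oxidation, 3 higher mitochondrial and 4 higher TGF-beta genes, and a pseudocount of 10 gave 1 higher immediate-early gene. Without replicate 4 of WTCTRL 3 interferon-stimulated genes were lower. Among named genes the log2 difference moved by over 1.5 times for Ednra (-3.06 to -0.30), Aqp9 (-2.02 to -0.44), Tex15 (-1.78 to -0.64), Pilrb1 (-1.54 to -0.41), Adm2 (0.87 to 2.55), Egr2 (0.55 to 1.83), Rsad2 (0.089 to 1.43) and mt-Co1 (0.096 to 0.18).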

Other observations

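These gene families lie outside the lists and were chosen after the data were seen. Over all genes tested, 4.19% had a higher and 5.71% a lower response in KO. Palmitate raised 18.7% and lowered 20.4% of all genes tested in KO, and raised 17.7% and lowered 19.9% in WT. Of 25 measured genes of the translocon and signal sequence machinery, which brings new proteins into the ER, 11 had a higher response in KO and none a lower one. Palmitate raised 12 and lowered 2 in KO, and raised none and lowered 8 in WT. Of 10 oligosaccharyltransferase genes, whose products attach N-glycans, 5 were higher and none lower. The catalytic subunit gene Stt3a was opposite at 0.11 ± 0.025 in KO and -0.12 ± 0.025 in WT (difference 0.23 ± 0.035, limma, Benjamini-Hochberg adjusted p = 6.5e-05). Of 11 COPII coat genes 4 were higher, and Sec24d, a cargo adaptor of these vesicles, had 346, 380.3, 437 and 399 normalized counts in KOPALM, 247, 226, 228 and 246 in KOCTRL, 860.1, 863, 826 and 866 in WTPALM and 1071, 1038, 918 and 1015 in WTCTRL. KOPALM lay above KOCTRL and WTPALM below WTCTRL, and the difference was 0.96 ± 0.085 (adjusted p = 1.83e-08). Of 9 COPI coat genes 3 were higher.

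Among other families, palmitate lowered 58 of 81 cytosolic ribosomal protein genes in KO and 75 in WT, with 7 differences higher and none lower. It lowered 24 of 37 proteasome genes in KO and 21 in WT, and 15 of 20 nucleoporin genes in each genotype. Of 36 kinesin genes 1 was higher and 6 lower in KO. For comparison, palmitate lowered 20.4% of all genes tested in KO and 19.9% in WT. The difference was called higher for 4.19% of all genes tested and lower for 5.71%.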
